A study of Homo sapiens with 8 samples.

Results

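Genes of the extracellular matrix and of the receptors that hold cells to it were examined in A549, a human cell line long established from a lung adenocarcinoma. The set holds each gene whose symbol is that of a collagen chain (COL, a number, A, a number), a laminin chain (LAMA, LAMB or LAMC with 1 digit), an integrin alpha chain (ITGA with a number, V, E or X) or an integrin beta chain (ITGB with 1 digit), together with FN1, SPARC, THBS1, VCAN, LOX, LOXL2, FBN1 and FBN2. The rule reads symbols and no measured value, but the set was proposed with earlier results of these data known. The rule gave 87 gene models with 86 symbols out of the 57820 in the deposited tables, because ITGB3 is listed under 2 identifiers. They fell into 11 fibrillar collagens, 6 basement membrane collagens (COL4), 27 other collagens, 12 laminins, 14 integrin alpha chains, 9 integrin beta chains and 8 single matrix genes.

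Poly(A) RNA was sequenced in 8 libraries, 2 (A and B) in each of 4 groups. One experiment set A549 cells with a vector that overexpresses MGA against A549 cells with the empty vector. The other set A549 cells treated with an siRNA against MYC (siMYC) against A549 cells treated with a control siRNA (siNC). The promoter of the vector, whether the vector cells were a clone or a pool, and the times of treatment are not stated in the labels. The labels do not say that A and B came from separate cultures. The p-values therefore cover only the scatter between these libraries, which may be technical, and exact permutation of 2 against 2 can give no p below 0.333.

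Collagens are built from 3 chains wound into a triple helix. Fibrillar collagens form the fibres of connective tissue, whereas collagen IV forms the sheet-like network of basement membranes, the layer on which an epithelium rests. Laminins are cross-shaped trimers of 1 alpha, 1 beta and 1 gamma chain and lie in the same layer. Integrins are pairs of 1 alpha and 1 beta chain in the cell membrane, and the pair decides which matrix protein is bound. MYC and MGA are DNA-binding proteins that both pair with MAX and read the same short DNA word, the E-box CACGTG. MYC is known for driving growth genes and MGA for repressing genes that MYC activates.

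Total expected counts were 820428 to 1176890 in the libraries of the overexpression experiment and 1398805 to 2129006 in those of the siRNA experiment, so values below about 10 CPM (normalised read count, scaled to library size) rest on few reads. The members took 1.121% and 1.16% of all counts with the empty vector, 0.969% in each MGA library, 1.02% and 0.994% with siNC, and 1.80% and 1.59% with siMYC. With the counts of the MGA gene left out of the total, their share was 1.07% in each MGA library. The manipulated genes moved as labelled. MGA stood at 122 and 81.5 CPM with the empty vector and at 102455 and 103732 CPM with the MGA vector, where it held 9.54% and 9.68% of all counts. MYC stood at 219 and 183 CPM with siNC and at 48.3 and 41.1 CPM with siMYC, and it rose with MGA, from 234 and 241 to 296 and 347 CPM (log2 fold change 0.43, SE 0.12, adjusted p = 0.025). Counts of A and B differed by more than sampling noise in each group: chi-square divided by its degrees of freedom was 1.18 and 1.13 in the empty vector and MGA groups and 1.82 and 1.85 in the siNC and siMYC groups. The keratins KRT8 and KRT18 of simple epithelia were abundant, at 1573 to 3218 and 993 to 2484 TPM (a level scaled to transcript length and to a fixed library total). The other 4 of 6 epithelial markers were far lower: KRT19 at 9.18 to 155 TPM, CDH1 at 6.16 to 49.95, CLDN4 at 1.26 to 12.5, and EPCAM at 0 to 1.13 in the overexpression libraries and 6.67 to 14.9 in the siRNA libraries. Of 8 markers of alveolar type 2 cells, SFTPA1, SFTPA2, SFTPB, SFTPC and NKX2-1 were at 0 in all 8 libraries, NAPSA was at 0 to 5.29 TPM, ABCA3 at 4.1 to 24.6, and LAMP3 at 15.2 to 20.9 in the overexpression libraries and 0 to 2.3 in the siRNA libraries. They summed to 25.9 and 29.5 TPM with the empty vector, 24.55 and 26.1 with MGA, 14.98 and 16.4 with siNC, and 25.7 and 28.1 with siMYC. The leukocyte markers summed to 6.53 and 7.67 TPM with the empty vector, 8.2 and 10.6 with MGA, 3.02 and 3.95 with siNC, and 9.88 and 13.5 with siMYC, from CD14 and LYZ, with PTPRC and CD3E at 0. Of the 3 red cell markers HBB was at 0, and HBA1 and HBA2 had 1 count each in all. DCN, a fibroblast marker, was at 0. The 7 fibroblast markers summed to 24.8 and 29.0 TPM with the empty vector, 37.7 and 60.6 with MGA, 17.9 and 19.0 with siNC and 17.3 and 27.2 with siMYC, and ACTA2, a smooth muscle actin that cell lines can express, made up 31.6 to 37.7 TPM of the sum with MGA. The 4 endothelial markers in the tables summed to at most 0.29 TPM. The part of these marker genes in the results was not tested. In bulk RNA, fewer cells of a type and less RNA per cell cannot be told apart.

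Of the 87 gene models, 48 had enough reads to be tested (minimum count 10, minimum total 15, which corresponds to 7.76 CPM in 2 libraries), and 39 did not. Of the 39, 8 had 0 counts in all libraries, and the highest total over the 8 libraries was 49, for COL22A1. Of the 48, 36 were above the cutoff in both libraries of each group. COL11A1 passed through the siMYC libraries alone and LAMC3 through the siNC libraries alone, so their responses to siMYC could only point one way. Of the 39 members above the cutoff in both siNC libraries, 31 were higher with siMYC at an adjusted p under 0.05. Over all 11218 genes tested 19.0% were higher, and the share among all genes above the same siNC cutoff was not computed. Levels of different genes are compared here as TPM. ITGB1, the common partner of many alpha chains, had the highest mean over the 8 libraries (1051 TPM), followed by ITGA3 (324 TPM), FN1 (229 TPM), COL4A2 (206 TPM), LAMA5 (197 TPM) and LAMB1 (185 TPM).

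**Figure D1:**
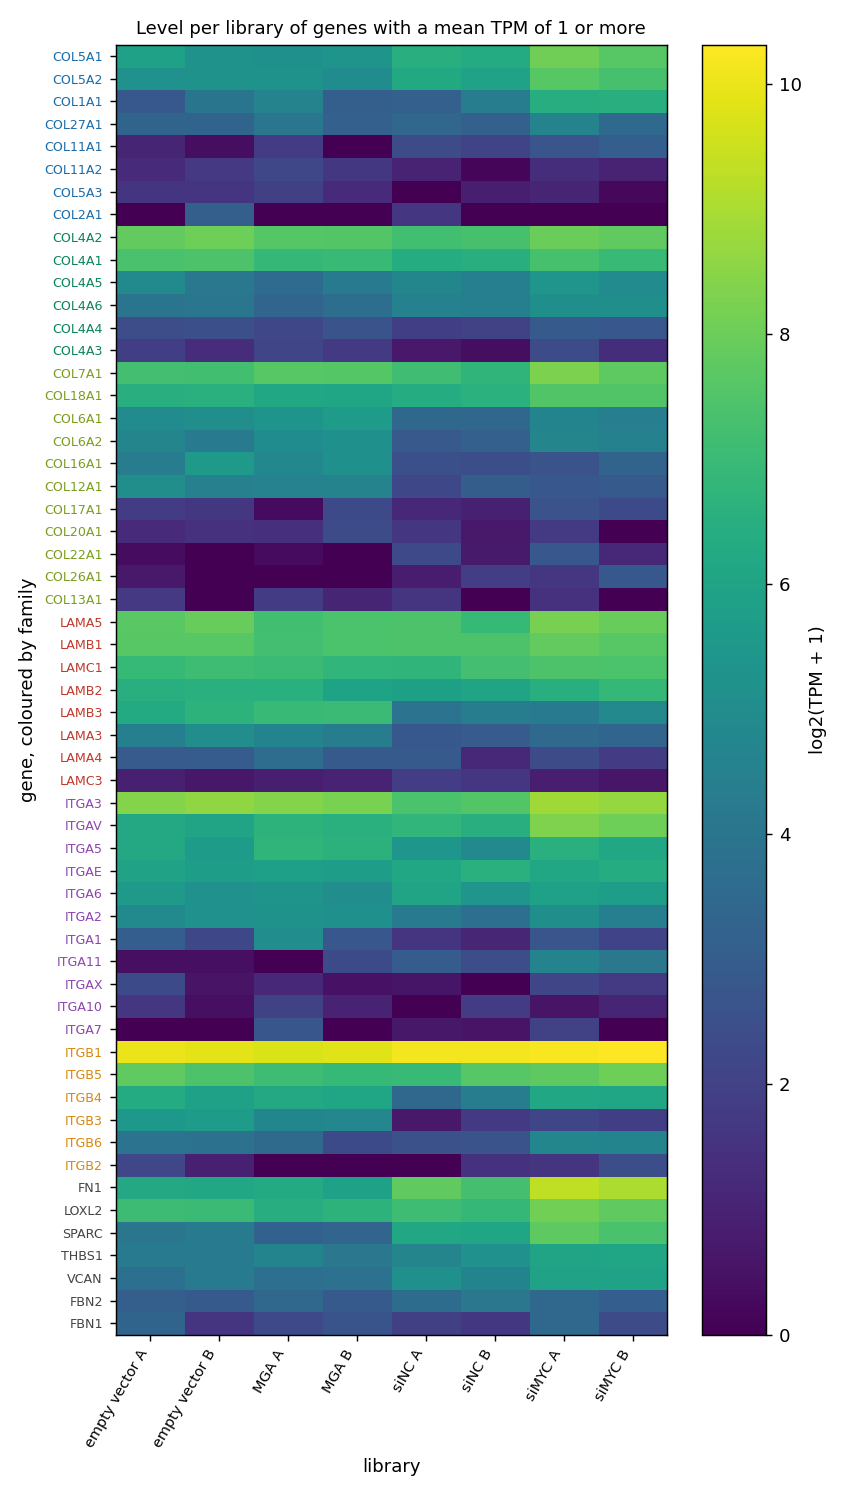
Level of 57 members with a mean of 1 TPM or more in each of the 8 libraries, as log2(TPM + 1), ordered by family (colour of the gene name) and by mean. ITGB1 is the brightest row in all libraries, FN1 and SPARC are brightest in the siMYC libraries, and ITGB3 and LAMB3 are brighter in the empty vector and MGA libraries than in the siRNA libraries.

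With siMYC, 35 of the 48 tested members rose, 2 fell (FBN2, and LAMC3, which was tested only because of its siNC libraries) and 11 did not pass the test; all adjusted p-values here are from edgeR's quasi-likelihood test with Benjamini-Hochberg adjustment over 11218 genes. Over all genes tested 39.0% passed, 19.0% higher and 20% lower, against 72.9% of members higher. The members' median log2 fold change was 0.79 and that of all genes 0.01. With MGA, 5 members rose (among them COL6A2, LAMB3, ITGA5 and ITGAV), 7 fell (COL4A1, COL4A2, COL18A1, LAMA5, LAMB1, ITGB3 and LOXL2) and 36 did not pass. Over all genes tested 8.96% passed with MGA, 4.96% higher and 4.0% lower, and the medians were -0.12 for members and 0.01 for all genes. Scaled by upper quartiles, or by library size alone, 3 members were called higher and 10 lower with MGA, and over all genes the 556 higher and 449 lower became 387 and 628, or 300 and 821. All 12 members that passed with MGA rose with siMYC, and 23 further members rose with siMYC alone by this threshold. Since 72.9% of all tested members rose with siMYC, this overlap is no measure of a link. The matching share among all genes called with MGA was not computed. The count with MGA rests on the number of libraries: leaving out empty vector A gave 10, empty vector B 5, MGA A 4 and MGA B 9. LAMB3 and ITGB3 kept their MGA calls without each of these libraries. On the deposited TPM, tested with limma on log2(TPM + 1), 0 members passed with MGA (12 at an unadjusted p under 0.05, the smallest adjusted p being 0.11) and 19 with siMYC, while DESeq2 called 9 and 28.

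Library siMYC A stood above siMYC B in 34 of the 48 members (median log2 ratio of 0.15, against -0.0020 over all genes), and siNC A stood above siNC B in 18. Without siMYC replicate A the number of members called was 30, and it ranged from 30 to 38 over the 4 siRNA libraries left out in turn. The tested members were long transcripts, with a median length of 4790 bases against 2354 for all genes. The 1301 genes at least that long had a median log2 fold change of 0.16 with siMYC and the 9917 shorter ones of -0.0048. Members on the long side had a median of 0.68 and those on the short side 0.91. The part of length or of library siMYC A in these values was not tested further.

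**Figure D2:**
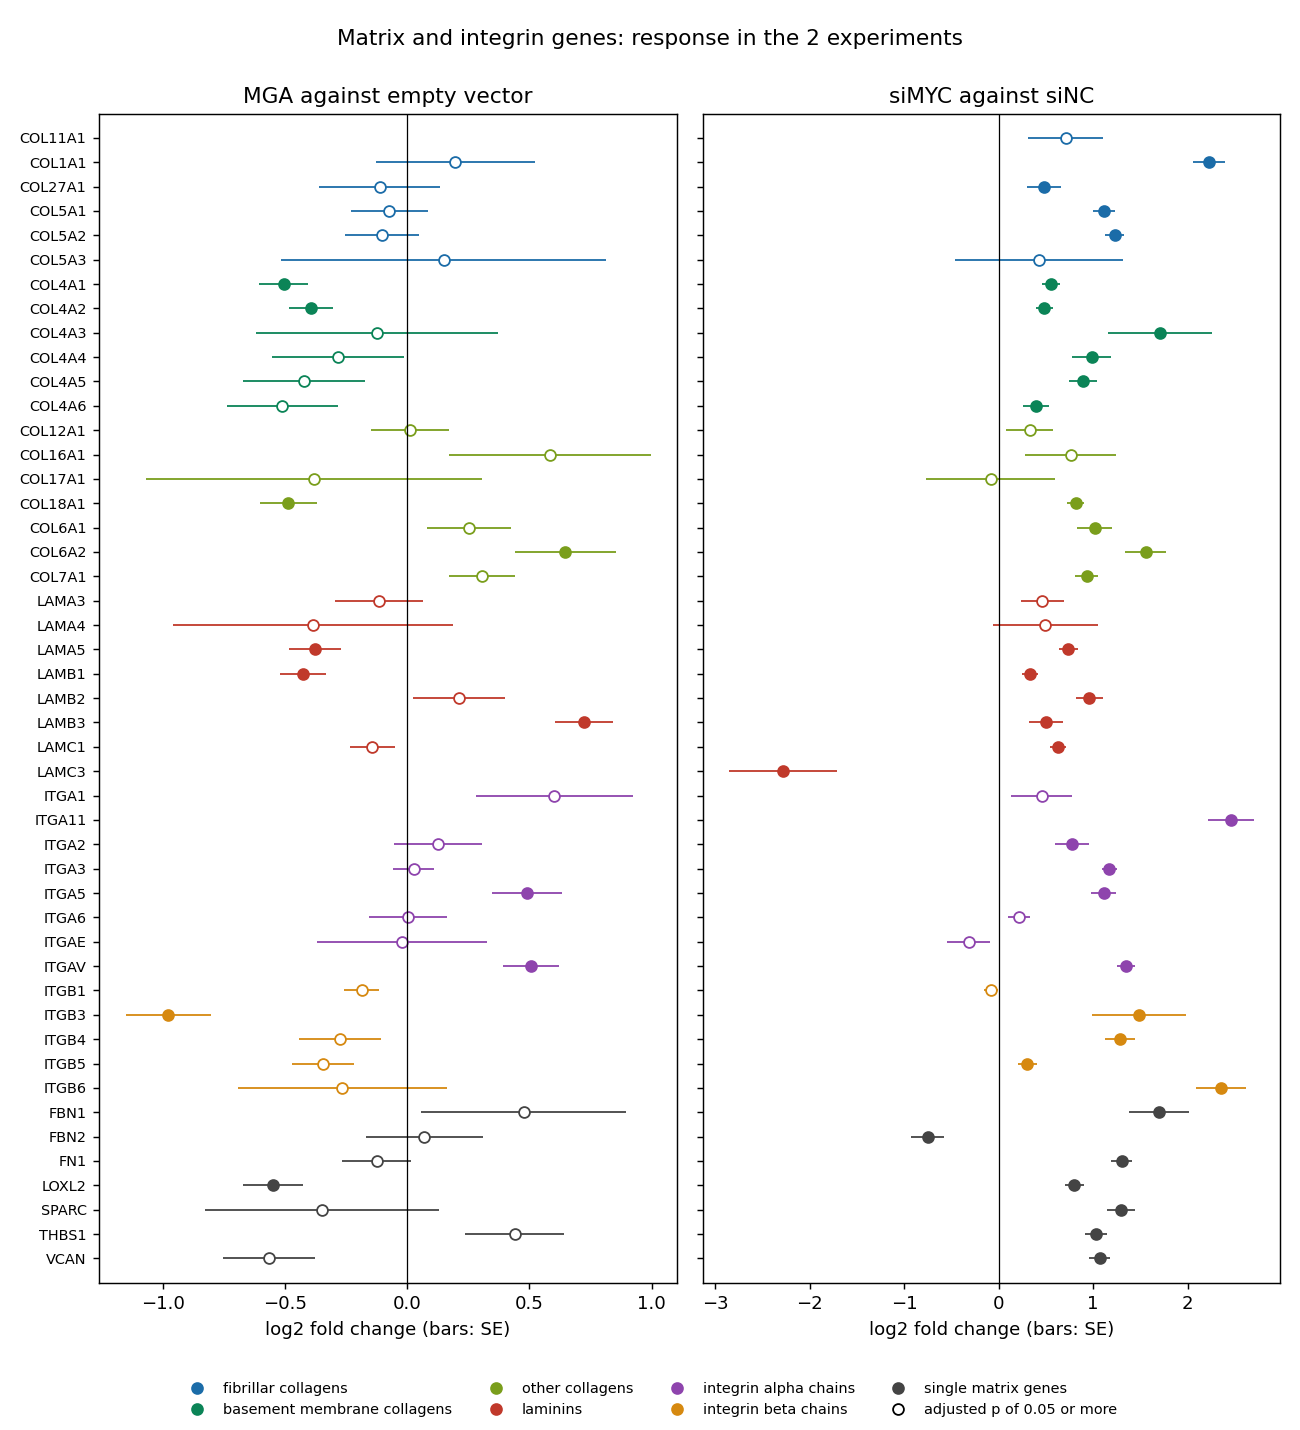
Log2 fold change of tested members with MGA (left) and with siMYC (right), with bars for the standard error, grouped by family; filled points have an adjusted p under 0.05 and open points do not. COL11A1, LAMC3 and ITGA11 are not drawn on the left, where both groups are at or under 3 counts per library on average. With siMYC 34 filled points lie right of 0 and 2 left of it, and with MGA 4 lie right and 7 left.

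Most tested fibrillar collagens rose with siMYC, and the tested ones were not detectably changed with MGA. Of the 6 tested genes, 4 rose with siMYC (COL1A1, COL5A2, COL5A1 and COL27A1) and 0 passed with MGA. COL11A1 and COL5A3 did not pass with siMYC (adjusted p = 0.16 and 0.75). COL1A1, which encodes the alpha 1 chain of collagen I, had 27.8 and 23.98 CPM with the empty vector, 29.2 and 30.4 with MGA, 22.9 and 46.7 with siNC and 164 and 172 with siMYC. Both siMYC libraries lay above all 6 others, a 4.69-fold rise (log2 fold change 2.23, SE 0.17, adjusted p = 7.6e-11). Its partner chain COL1A2 had 0 or 1 counts in each of the 8 libraries. COL5A1 and COL5A2, the chains of collagen V, a collagen that is built into collagen I fibres, were the fibrillar genes with the highest levels. COL5A1 had 207 and 218 CPM with the empty vector, 197 and 208 with MGA, 467 and 391 with siNC and 1083 and 765 with siMYC, and it rose with siMYC (log2 fold change 1.12, SE 0.11, adjusted p = 9.1e-09). COL5A2 had 169 and 155 CPM with the empty vector, 157 and 144 with MGA, 354 and 289.8 with siNC and 824 and 676 with siMYC (log2 fold change 1.23, SE 0.10, adjusted p = 3.1e-10 with siMYC). For both genes the MGA and empty vector libraries overlapped (log2 fold changes of -0.07 and -0.10, SE 0.16 and 0.15). COL27A1 rose less (log2 fold change 0.48, adjusted p = 0.035), and its call was lost without siNC replicate B (0.31, adjusted p = 0.33) or siMYC replicate A (0.22, adjusted p = 0.48). COL3A1, the collagen of reticular fibres, was too low to test, with 9 and 3 counts in the siMYC libraries and 0 or 1 in each of the other 6.

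In the main fit the COL4 genes were the family with the same sign throughout. All 6 were tested, and all 6 rose with siMYC. All 6 had negative log2 fold changes with MGA, 2 of which passed. These signs were the same with each of the 4 other scalings of the counts tried. COL4A3 was close to no change with MGA (log2 fold change -0.12, SE 0.50). In TPM its mean was higher with MGA (2.93) than with the empty vector (2.125). COL4A1 (ENSG00000187498.10), which with COL4A2 forms the collagen IV of nearly every basement membrane, had 707 and 759 CPM with the empty vector and 500.0 and 535 with MGA. It had 364 and 409 CPM with siNC and 619.5 and 512 with siMYC. The groups did not overlap in either experiment: COL4A1 fell with MGA (log2 fold change -0.50, SE 0.10, adjusted p = 0.0014) and rose with siMYC (log2 fold change 0.55, SE 0.10, adjusted p = 3.7e-05). COL4A2 (ENSG00000134871.13) fell from 954 and 1119 to 802 and 776 CPM with MGA (log2 fold change -0.39, SE 0.09, adjusted p = 0.0058) and rose from 620.1 and 681 to 959 and 863 CPM with siMYC (log2 fold change 0.49, SE 0.09, adjusted p = 5.5e-05). Both responses thus went in the same direction for the 2 partner chains, and the ratio of COL4A1 to COL4A2 in TPM stayed between 0.564 and 0.713 over the 8 libraries. The fall of COL4A1 with MGA lost its call without MGA replicate A (-0.45, adjusted p = 0.057), and that of COL4A2 without empty vector replicate B (-0.28, adjusted p = 0.17), MGA replicate A (-0.42, adjusted p = 0.056) or MGA replicate B (-0.37, adjusted p = 0.08).

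COL4A1 and COL4A2 lie head to head on chromosome 13. In the RefSeq annotation of GRCh38.p14, 126 bases lie between their transcription starts, which are on opposite strands. A single short stretch thus lies upstream of both. It is shown because both genes moved together in both experiments. The stretch spans chr13:110307158-110307283, is given on the strand of COL4A2 in lower case, and has 80.2% G and C:
COL4A1 to COL4A2: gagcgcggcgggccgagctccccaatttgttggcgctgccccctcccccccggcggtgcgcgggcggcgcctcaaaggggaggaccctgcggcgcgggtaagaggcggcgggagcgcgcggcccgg
It holds no CACGTG. The other COL4 genes are paired in the same way. There are 418 bases between the starts of COL4A4 and COL4A3 on chromosome 2. Between those of COL4A6 and COL4A5 on chromosome X there are 379. Over the 8 libraries the TPM ratio of COL4A3 to COL4A4 ranged from 0.105 to 0.975. That of COL4A5 to COL4A6 ranged from 0.888 to 2.01. The ratio of LAMB1 to LAMC1, which are not such a pair, ranged from 1.16 to 1.64. A steady ratio was thus not a trait of head-to-head pairs.

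The other COL4 chains, which replace the common pair in specialised basement membranes such as that of the kidney filter, were less abundant. COL4A5 had 40.5 and 51.6 CPM with the empty vector, 35.6 and 32.7 with MGA, 74.3 and 55.4 with siNC and 125 and 113 with siMYC (log2 fold change 0.89, SE 0.14, adjusted p = 1.5e-05 with siMYC). Its head-to-head partner COL4A6 had 57.9 and 56.4 CPM with the empty vector, 32.8 and 49.1 with MGA, 96.4 and 88.1 with siNC and 129 and 112 with siMYC (log2 fold change 0.40, SE 0.13, adjusted p = 0.019 with siMYC). With MGA the log2 fold changes of COL4A5 and COL4A6 were -0.42 and -0.51 (adjusted p = 0.33 and 0.17). COL4A4 had 30.1 and 32.4 CPM with the empty vector, 23.7 and 28.04 with MGA, 18.6 and 20.4 with siNC and 39.98 and 37.4 with siMYC, with the siMYC libraries above all others (log2 fold change 0.99, SE 0.21, adjusted p = 0.00044 with siMYC). COL4A3 was the lowest of the family, at 15.1 and 8.39 CPM with the empty vector, 9.12 and 12.9 with MGA, 3.57 and 1.75 with siNC and 10.1 and 6.75 with siMYC. It rose with siMYC (log2 fold change 1.71, SE 0.55, adjusted p = 0.015) from a siNC level of few reads. The rises of COL4A3 and COL4A6 lost their calls without siNC replicate B or siMYC replicate A (log2 fold changes of 1.23 and 1.35 for COL4A3, adjusted p = 0.19 and 0.18; 0.31 and 0.28 for COL4A6, adjusted p = 0.17 and 0.2).

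Of the 27 other collagens, 7 could be tested; 4 rose with siMYC (COL6A2, COL6A1, COL7A1 and COL18A1), and with MGA COL6A2 rose and COL18A1 fell. COL18A1 encodes a basement membrane collagen whose end fragment is endostatin. It had 304 and 338 CPM with the empty vector, 241 and 216 with MGA, 291 and 338 with siNC and 545 and 565 with siMYC. Its MGA libraries were the lowest 2 of the 8 and its siMYC libraries the highest 2 (log2 fold change -0.49, SE 0.12, adjusted p = 0.0069 with MGA; log2 fold change 0.81, SE 0.09, adjusted p = 7.7e-08 with siMYC). The fall was not called without empty vector replicate B or MGA replicate B (-0.42 without each, adjusted p = 0.12 and 0.11). COL6A1 and COL6A2 encode chains of the beaded filaments of collagen VI. COL6A2 had 53.3 and 39.6 CPM with the empty vector, 69.3 and 77.1 with MGA, 14.3 and 18.1 with siNC and 50.1 and 46.02 with siMYC, without overlap in either experiment (log2 fold change 0.65, SE 0.21, adjusted p = 0.047 with MGA; log2 fold change 1.56, SE 0.22, adjusted p = 1.7e-06 with siMYC). Its rise with MGA, close to the threshold, lost the call without any 1 of the 4 libraries (log2 fold changes of 0.45 to 0.88, adjusted p = 0.068 to 0.37), when scaled by upper quartiles or by library size alone and with the MGA gene left out of the counts. COL6A1 had 78.7 and 88.7 CPM with the empty vector, 93.97 and 106 with MGA, 24.3 and 29.7 with siNC and 59.7 and 49.7 with siMYC (log2 fold change 1.02, SE 0.19, adjusted p = 9e-05 with siMYC; 0.25 with MGA, adjusted p = 0.42). The third chain of the filament, COL6A3, had 0 to 8 counts in each library and was not tested. COL7A1, the anchoring fibril collagen that ties epithelium to the underlying tissue, had 369 and 434 CPM with the empty vector, 521 and 469.7 with MGA, 372 and 327 with siNC and 787 and 537 with siMYC (log2 fold change 0.93, SE 0.12, adjusted p = 5.7e-07 with siMYC). COL12A1, which decorates collagen fibres, showed no detectable change in either experiment, at 109 and 112 CPM with the empty vector, 113 and 109 with MGA, 14.3 and 18.7 with siNC and 23.4 and 17.8 with siMYC. COL15A1 and COL22A1 were too low to test, with 14 and 6 counts and 27 and 8 counts in the siMYC libraries and 0 to 7 in each other library.

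Laminins split with MGA. LAMB3 rose and LAMA5 and LAMB1 fell, while with siMYC LAMB3, LAMA5, LAMB1, LAMB2 and LAMC1 rose and LAMC3 fell. LAMB3 (ENSG00000196878.8) encodes a beta chain of the laminin of epithelial anchoring sites. LAMB3 had 186 and 198 CPM with the empty vector and 321 and 312 with MGA. Both MGA libraries lay above both empty vector libraries, a 1.65-fold rise (log2 fold change 0.72, SE 0.12, adjusted p = 0.00017). LAMA3, the alpha chain of the same trimer, did not pass: it had 92.6 and 110.3 CPM with the empty vector and 99.4 and 86.5 with MGA (log2 fold change -0.12, SE 0.18, adjusted p = 0.76). With siMYC, LAMB3 went from 27.9 and 33.2 to 45.5 and 41.1 CPM (log2 fold change 0.50, SE 0.18, adjusted p = 0.031). This rise lost its call without siNC replicate A (0.39, adjusted p = 0.19), siNC replicate B (0.63, adjusted p = 0.055) or siMYC replicate A (0.41, adjusted p = 0.19).

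LAMA5, LAMB1 and LAMC1 can form laminin-511, the broadly used laminin of adult epithelia. LAMA5 had 675 and 785 CPM with the empty vector, 531 and 596 with MGA, 423 and 468 with siNC and 820.3 and 666 with siMYC. LAMB1 had 555 and 554 CPM with the empty vector, 406 and 419 with MGA, 426 and 470.0 with siNC and 577 and 552 with siMYC. For both genes the treated and control libraries did not overlap in either experiment: both fell with MGA (LAMA5 log2 fold change -0.38, SE 0.11, adjusted p = 0.022; LAMB1 log2 fold change -0.43, SE 0.09, adjusted p = 0.004) and rose with siMYC (LAMA5 log2 fold change 0.74, SE 0.10, adjusted p = 8.7e-07; LAMB1 log2 fold change 0.33, SE 0.08, adjusted p = 0.0026). The MGA call of LAMA5 was lost without empty vector replicate B (-0.27, adjusted p = 0.3) or MGA replicate A (-0.29, adjusted p = 0.28), and that of LAMB1 without MGA replicate A (-0.40, adjusted p = 0.081). LAMC1, the gamma chain shared by most laminins, had 498 and 481 CPM with the empty vector, 453 and 433 with MGA, 476 and 500.3 with siNC and 777 and 730.3 with siMYC (log2 fold change 0.63, SE 0.08, adjusted p = 6.6e-07 with siMYC; -0.14 with MGA, adjusted p = 0.4). LAMB2 rose with siMYC from 51.4 and 70.6 to 120.4 and 120.3 CPM (log2 fold change 0.96, SE 0.14, adjusted p = 3.8e-06) and had 68.3 and 69.6 CPM with the empty vector and 83.03 and 75.9 with MGA. LAMC3, a minor gamma chain, went from 10 and 8.75 to 1.84 and 1.84 CPM with siMYC (log2 fold change -2.28, SE 0.57, adjusted p = 0.0021), which is from 14 and 15 reads to 4 and 3. Its filter left room only for a fall, the call was lost with limma on log2(TPM + 1) (-0.99, adjusted p = 0.12), and DESeq2 gave no adjusted p.

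Integrin alpha chains rose with siMYC in 5 of 8 tested genes (ITGA3, ITGAV, ITGA11, ITGA5 and ITGA2), and ITGA5 and ITGAV rose with MGA as well. ITGA3 encodes the partner of ITGB1 in a laminin receptor of epithelial cells and was the alpha chain with the highest level. It had 865 and 961 CPM with the empty vector, 925 and 934 with MGA, 504 and 529 with siNC and 1179 and 1147 with siMYC. The MGA libraries lay between the empty vector libraries (log2 fold change 0.03, SE 0.08, adjusted p = 0.9), and the siMYC libraries were more than 2-fold above siNC (log2 fold change 1.17, SE 0.08, adjusted p = 7.3e-12). ITGAV, the alpha chain of vitronectin and TGF-beta activating receptors, had 328 and 287 CPM with the empty vector, 446 and 426 with MGA, 521 and 434 with siNC and 1299 and 1125 with siMYC. ITGA5, the alpha chain of the classical fibronectin receptor, had 159.8 and 155 CPM with the empty vector, 237 and 202 with MGA, 112 and 90.4 with siNC and 238 and 194 with siMYC. Treated libraries lay above controls in both experiments for both genes. ITGAV rose with MGA (log2 fold change 0.51, SE 0.11, adjusted p = 0.0043) and with siMYC (log2 fold change 1.35, SE 0.09, adjusted p = 8.8e-12), and so did ITGA5 (MGA: log2 fold change 0.49, SE 0.14, adjusted p = 0.028; siMYC: log2 fold change 1.11, SE 0.13, adjusted p = 9.3e-08). The MGA calls were lost for ITGAV without empty vector replicate B (0.41, adjusted p = 0.12) or MGA replicate A (0.47, adjusted p = 0.07). For ITGA5 they were lost if empty vector replicate A (0.51, adjusted p = 0.14), empty vector replicate B (0.46, adjusted p = 0.19) or MGA replicate A (0.36, adjusted p = 0.32) was left out, and also when scaled by library size alone or by upper quartiles. ITGA11, a collagen receptor chain of mesenchymal cells, had 0 or 1 counts in each library of the overexpression experiment. It rose from 10 and 11.7 CPM with siNC to 69.4 and 49.7 with siMYC (log2 fold change 2.46, SE 0.25, adjusted p = 7.4e-09). ITGA2, a collagen receptor chain, rose with siMYC from 95.01 and 65.9 to 165 and 103 CPM (log2 fold change 0.78, SE 0.18, adjusted p = 0.00085), a call lost without siNC replicate B (0.50, adjusted p = 0.059) or siMYC replicate A (0.37, adjusted p = 0.13). ITGA6, the laminin receptor chain of hemidesmosomes, had 123 and 102 CPM with the empty vector, 112 and 113 with MGA, 158 and 148 with siNC and 192 and 160.2 with siMYC and passed in neither experiment (log2 fold change 0.00, SE 0.16, adjusted p = 1 with MGA; log2 fold change 0.22, SE 0.12, adjusted p = 0.15 with siMYC).

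Of the 5 tested integrin beta chains, 4 rose with siMYC (ITGB4, ITGB6, ITGB3 and ITGB5), and all 5 had negative log2 fold changes with MGA, of which ITGB3 passed. ITGB1 passed in neither experiment, with 2304 and 2123 CPM with the empty vector, 1943 and 1946 with MGA, 2465 and 2486 with siNC and 2245 and 2436 with siMYC (log2 fold change -0.19, SE 0.07, adjusted p = 0.11 with MGA; log2 fold change -0.08, SE 0.07, adjusted p = 0.38 with siMYC). ITGB1 and ITGB5 fell past the threshold when scaled by upper quartiles or by library size alone, where 3 beta chains were called lower with MGA. ITGB3 (ENSG00000259207.3), which pairs with ITGAV in the vitronectin receptor, had 116 and 133 CPM with the empty vector and 59.3 and 67.8 with MGA. This was the largest fall with MGA among the members that passed (log2 fold change -0.98, SE 0.18, adjusted p = 0.00047). In the siRNA experiment ITGB3 was near the detection limit, at 1.43 and 3.67 CPM with siNC and 7.92 and 6.75 with siMYC (log2 fold change 1.48, SE 0.50, adjusted p = 0.018), and that rise lost its call without siNC replicate A (1.05, adjusted p = 0.17) or siMYC replicate A (1.36, adjusted p = 0.1). The second ITGB3 model held 0.94 and 1.40 counts in 1 siNC and 1 siMYC library and 0 elsewhere. ITGB6, the epithelial partner of ITGAV, had 17.4 and 8.39 CPM with the empty vector, 10.04 and 11.7 with MGA, 9.29 and 7.58 with siNC and 43.2 and 42.96 with siMYC, with both siMYC libraries above the 6 others (log2 fold change 2.35, SE 0.27, adjusted p = 6.4e-08 with siMYC). ITGB4, which pairs with ITGA6 in hemidesmosomes, had 127 and 165 CPM with the empty vector, 125 and 116 with MGA, 38.6 and 61.8 with siNC and 125 and 125 with siMYC (log2 fold change 1.29, SE 0.16, adjusted p = 3.6e-07 with siMYC; -0.28 with MGA, adjusted p = 0.34). ITGB5 had 267 and 276 CPM with the empty vector, 209.8 and 218 with MGA, 251 and 320.1 with siNC and 335 and 376 with siMYC, and its rise with siMYC (log2 fold change 0.31, SE 0.10, adjusted p = 0.02) lost its call without siNC replicate A (0.14, adjusted p = 0.34) or siMYC replicate B (0.21, adjusted p = 0.16). ITGB8 was too low to test, with 17.04 and 8.97 counts in the siMYC libraries and 1 to 3 in each of the others.

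**Figure D3:**
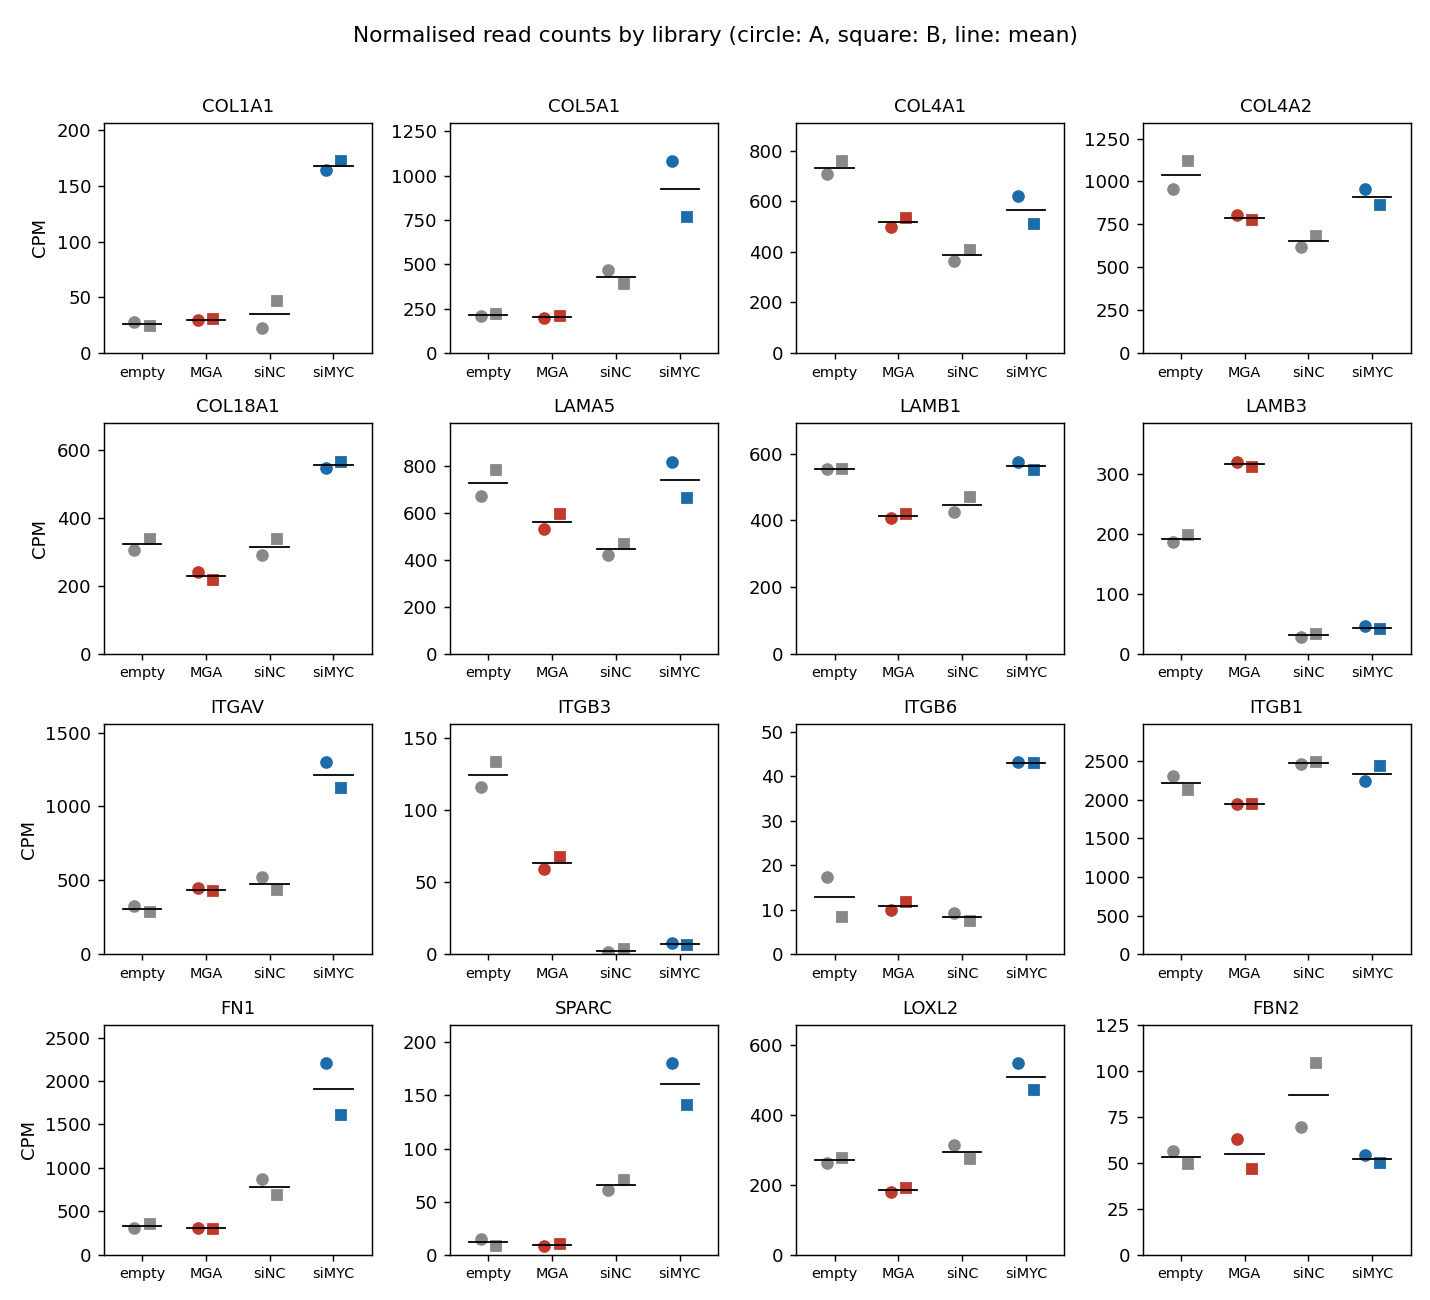
Normalised read count (CPM, vertical axis from 0) of 16 members, chosen after their values were seen, in each library (circle for A, square for B) with a line at the group mean. COL4A1, COL4A2, COL18A1, LAMA5 and LOXL2 are lower with MGA than with the empty vector and higher with siMYC than with siNC, LAMB3 is higher with MGA, and ITGB3 is at 1.43 to 7.92 CPM in the siRNA libraries.

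All 7 tested single matrix genes passed with siMYC, 6 of them higher, and 1 (LOXL2) passed with MGA. FN1, fibronectin, the bridging glycoprotein that ITGA5 with ITGB1 binds, had 313 and 359 CPM with the empty vector, 312 and 303 with MGA, 868 and 684 with siNC and 2208 and 1609 with siMYC. Both siMYC libraries lay above the 6 others (log2 fold change 1.30, SE 0.11, adjusted p = 4e-10 with siMYC), and the MGA libraries lay at or below the lower empty vector library (log2 fold change -0.12, SE 0.14, adjusted p = 0.66 with MGA). SPARC, a collagen-binding secreted protein, had 15.1 and 8.39 CPM with the empty vector, 8.21 and 10.5 with MGA, 61.4 and 69.98 with siNC and 181 and 141 with siMYC (log2 fold change 1.30, SE 0.14, adjusted p = 4e-08 with siMYC). THBS1, thrombospondin 1, an adhesion protein that activates TGF-beta, had 59.04 and 49.2 CPM with the empty vector, 64.8 and 84.1 with MGA, 117 and 138 with siNC and 255 and 268 with siMYC (log2 fold change 1.03, SE 0.12, adjusted p = 6e-08 with siMYC; 0.44 with MGA, adjusted p = 0.19). Each of these 3 genes was higher in both siMYC libraries than in both siNC libraries. VCAN, the proteoglycan versican, had 75.3 and 95.9 CPM with the empty vector, 63.9 and 50.2 with MGA, 138 and 142 with siNC and 287 and 303 with siMYC (log2 fold change 1.07, SE 0.11, adjusted p = 1.4e-08 with siMYC; -0.56 with MGA, adjusted p = 0.058). VCAN was called lower with MGA when scaled by upper quartiles or by library size alone and with the MGA gene left out of the counts. LOXL2, a lysyl oxidase that cross-links collagen, had 264 and 278 CPM with the empty vector, 181 and 190.4 with MGA, 314 and 275 with siNC and 550.1 and 471 with siMYC, lower with MGA (log2 fold change -0.55, SE 0.12, adjusted p = 0.0047) and higher with siMYC (log2 fold change 0.80, SE 0.10, adjusted p = 1.7e-07). Its MGA call was lost without empty vector replicate B (-0.52, adjusted p = 0.069) or MGA replicate A (-0.51, adjusted p = 0.087). LOX itself had 0 to 3 counts in each library and was not tested. FBN1, the main fibrillin of elastic microfibrils, rose with siMYC from 5.72 and 9.91 to 28.5 and 23.3 CPM (log2 fold change 1.70, SE 0.32, adjusted p = 0.00011) and had 15.1 and 8.39 CPM with the empty vector and 14.6 and 18.7 with MGA. FBN2, the fibrillin of developing tissue, went the other way: it had 56.7 and 49.2 CPM with the empty vector, 62.95 and 46.7 with MGA, 69.3 and 104 with siNC and 54.2 and 49.7 with siMYC, and fell with siMYC (log2 fold change -0.75, SE 0.17, adjusted p = 0.00086). That fall rests on siNC B, since without siNC replicate B it was -0.42 (adjusted p = 0.12).

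Promoter windows from RefSeq (GRCh38.p14, 250 bases before to 50 after the start) were searched for CACGTG, which reads the same on both strands, because both manipulated proteins read that word. Windows were found for 63 of the 86 symbols. The word was in 2 of them (FBN2 and ITGA6), or 3.17%, against 8.77% of the 27305 symbols with a window. FBN2 fell with siMYC and ITGA6 passed in neither experiment. The stretch around the word is shown for both, on the strand of the gene, with the word in capitals. It spans chr5:128538277-128538402 (minus strand) for FBN2, where the word begins 97 bases before the start, and chr2:172427175-172427300 (plus strand) for ITGA6, where it begins 101 bases before the start:
FBN2: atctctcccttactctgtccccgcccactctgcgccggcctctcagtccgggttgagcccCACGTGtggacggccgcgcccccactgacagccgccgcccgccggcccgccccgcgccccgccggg
ITGA6: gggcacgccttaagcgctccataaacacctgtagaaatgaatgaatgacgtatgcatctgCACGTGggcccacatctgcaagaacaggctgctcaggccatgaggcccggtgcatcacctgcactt
A match describes the letters of the window and is not a measured binding site, and binding was not measured in these libraries.

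The 2 experiments share no libraries, so the difference between their responses (the MGA change minus the siMYC change, on the log2 scale) was tested directly. Of the 48 members, 27 had a lower log2 response to MGA than to siMYC, 1 had a higher one (FBN2) and 20 did not pass. Over all genes 18.5% passed, 10.3% higher and 8.22% lower, against 56.25% of members lower. The median difference was -0.86 for members and 0.03 for all genes. Over all genes 1154 differences were positive calls and 922 negative ones, against 804 and 1188 scaled by upper quartiles, 714 and 1357 scaled by library size alone and 892 and 1101 with the MGA gene left out. The members' calls under these 3 scalings were 0 positive and 29 or 30 negative. The difference of COL4A1 was -1.06 (SE 0.14, adjusted p = 3.4e-06), of COL18A1 -1.30 (SE 0.15, adjusted p = 4.2e-07), of LOXL2 -1.35 (SE 0.16, adjusted p = 5.5e-07) and of ITGB3 -2.46 (SE 0.52, adjusted p = 0.0012), on the log2 scale. These genes had opposite signs in the 2 experiments. The siMYC side of ITGB3 rests on few reads, 2 and 6.29 counts with siNC and 17.24 and 11 with siMYC. Its rise with siMYC lost the call in 5 of 14 alternatives. In ITGA3, FN1, COL5A1, COL5A2 and COL1A1 the difference (-1.14, -1.43, -1.19, -1.33 and -2.03) came with a rise with siMYC and no detectable change with MGA. ITGAV rose in both, and less with MGA (difference of the 2 log2 fold changes -0.84, SE 0.15, adjusted p = 0.00016). For LAMB3 the difference of 0.22 did not pass (SE 0.22, adjusted p = 0.54).

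Of the 28 differences called, 18 kept the call without each library in turn. FBN2 (0.82, adjusted p = 0.049) lost it without 6 of the 8 libraries (0.49 to 0.94, adjusted p = 0.052 to 0.33): empty vector replicates A and B, MGA replicate A, siNC replicate B and siMYC replicates A and B. COL6A1 also lost it without 6 libraries (-0.84 to -0.61, adjusted p = 0.052 to 0.15), which were both empty vector and both MGA replicates, siNC replicate A and siMYC replicate A. COL6A2 lost it without empty vector replicate A, MGA replicate A or B, siNC replicate A or siMYC replicate A (-0.97 to -0.67, adjusted p = 0.056 to 0.25). ITGA5 lost it without empty vector replicate A or B, MGA replicate B, siNC replicate B or siMYC replicate A (-0.63 to -0.45, adjusted p = 0.078 to 0.15). LAMB2 lost it without any 1 of the 4 overexpression libraries or siNC replicate A (-0.81 to -0.56, adjusted p = 0.064 to 0.12). COL7A1 lost it without empty vector replicate B, MGA replicate B, siNC replicate B or siMYC replicate A (-0.55 to -0.32, adjusted p = 0.061 to 0.16). COL4A6 lost it without empty vector replicates A or B or MGA replicate A (-0.92 to -0.61, adjusted p = 0.064 to 0.21), and COL4A4 without empty vector replicate B or MGA replicate A (-1.21 to -1.13, adjusted p = 0.052 to 0.064). SPARC lost it without empty vector replicate A or MGA replicate A (-1.45 to -1.15, adjusted p = 0.13 to 0.33), and ITGB6 without empty vector replicate A (-1.99, adjusted p = 0.064).

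**Figure D4:**
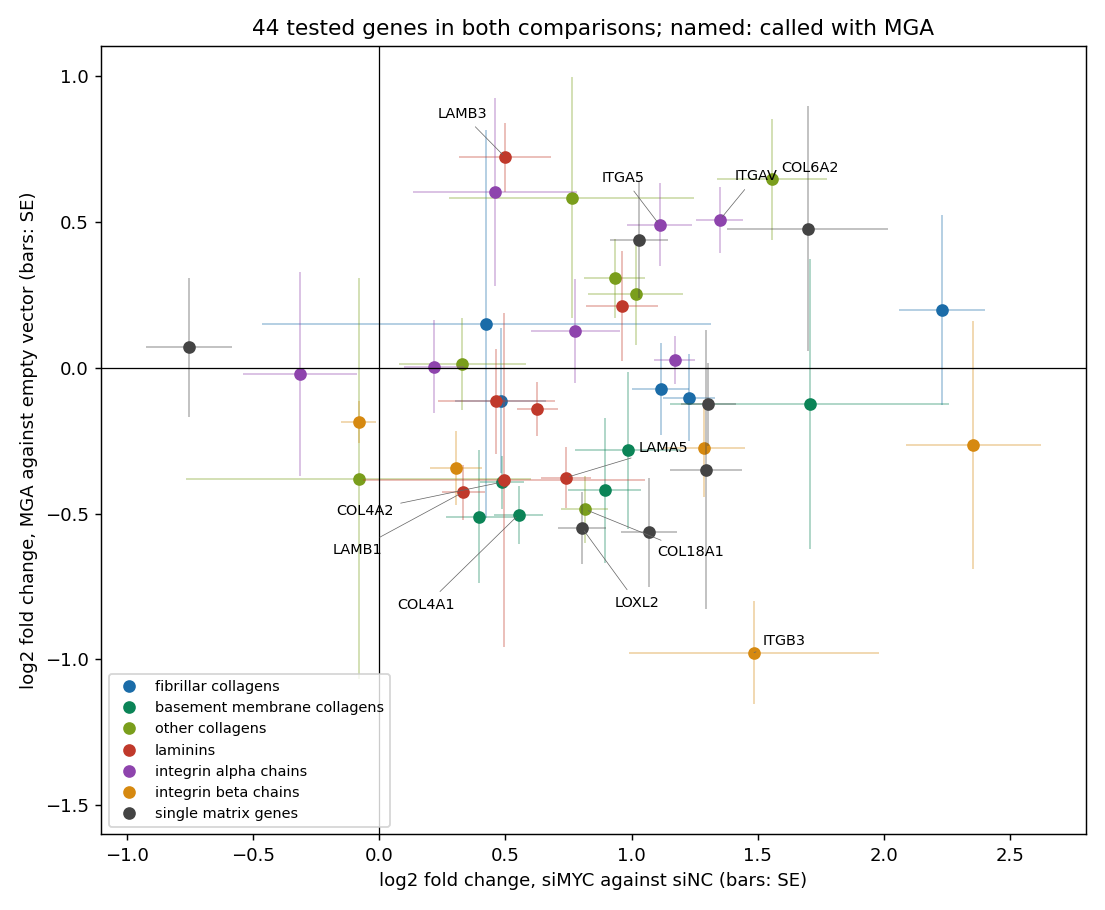
Log2 fold change with siMYC (horizontal) against that with MGA (vertical) for 44 tested members, coloured by family, with bars for the standard errors; the 11 members drawn that were called with MGA are named, and COL11A1, LAMC3 and ITGA11 are left out because both overexpression groups are at or under 3 counts per library on average. All 11 named genes lie right of 0, with 4 above and 7 below the horizontal line.

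Some members stood at different levels in the 2 control groups, which differ in experiment and in control agent, so that these cannot be told apart. ITGB3 had 116 and 133 CPM with the empty vector and 1.43 and 3.67 with siNC, and LAMB3 186 and 198 with the empty vector and 27.9 and 33.2 with siNC. COL12A1 had 109 and 112 CPM with the empty vector and 14.3 and 18.7 with siNC. SPARC had 15.1 and 8.39 CPM with the empty vector and 61.4 and 69.98 with siNC, and FN1 had 313 and 359 and, with siNC, 868 and 684. No test was made of these levels. A response of ITGB3 or SPARC was therefore measured from a different starting level in each experiment.

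Genes that work with the members were counted in 5 related lists, beside the 39.0% of all genes that passed with siMYC (19.0% higher) and the 8.96% that passed with MGA. Of 24 tested other matrix glycoproteins and proteoglycans, 15 rose and 1 fell with siMYC, and 0 rose and 4 fell with MGA. TGFBI, a secreted protein that binds collagen and integrins, fell from 1788 and 1897 to 1382 and 1323 CPM with MGA (log2 fold change -0.45, SE 0.07, adjusted p = 0.0002) and rose from 2093 and 2027 to 3843 and 3528 CPM with siMYC (log2 fold change 0.84, SE 0.07, adjusted p = 3.4e-10). SMOC1, a basement membrane protein, did the same, from 115 and 134 to 73.9 and 66.6 CPM and from 24.3 and 32.1 to 44.1 and 57.1 CPM (log2 fold changes of -0.82 and 0.81, adjusted p = 0.0032 and 0.0018). EFEMP1 (fibulin-3) fell with MGA by 0.99 on the log2 scale, and NTN4 (netrin-4) rose with siMYC by 1.41. Of 23 tested genes of collagen folding and processing, 9 rose and 1 fell with siMYC, and 3 fell with MGA: P4HB, the beta subunit of prolyl 4-hydroxylase, CRTAP and LEPREL4, which take part in prolyl or lysyl modification (log2 fold changes of -0.39, -0.43 and -0.93). P4HA3, a catalytic subunit of the same enzyme, BMP1, which trims procollagens, and PLOD2, a lysyl hydroxylase, rose with siMYC (1.67, 1.19 and 0.63).

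Of 21 tested matrix proteases and inhibitors, 12 rose and 0 fell with siMYC, and 4 rose and 1 fell with MGA. PLAU, urokinase, rose in both comparisons, from 509 and 502 to 744 and 723 CPM with MGA (log2 fold change 0.54, SE 0.09, adjusted p = 0.00032) and from 160.0 and 138 to 247 and 228 CPM with siMYC (log2 fold change 0.68, SE 0.10, adjusted p = 7.1e-06), and TIMP2, a metalloproteinase inhibitor, passed with siMYC (1.24) and not with MGA (0.28, adjusted p = 0.082). Of 40 tested genes of focal adhesions, the sites where integrins meet the actin skeleton, 22 rose and 5 fell with siMYC and 5 rose and 3 fell with MGA. VASP, DST and PXN (paxillin) rose with MGA (0.85, 0.65 and 0.52), and TNS4, SRC and TNS3 fell (-0.87, -0.65 and -0.48). With siMYC, TGFB1I1, PDLIM7 and TNS1 rose (2.09, 1.27 and 1.28), while FERMT1, VCL (vinculin) and ILK, which link integrins to actin, fell (-1.74, -0.71 and -0.73). ILK rose with MGA (log2 fold change 0.58, SE 0.15, adjusted p = 0.012). SRC and TNS3 went the other way, lower with MGA and higher with siMYC (0.35 and 0.54, adjusted p = 0.0021 and 2.2e-05). Of 14 tested matrix receptors other than integrins, 8 rose and 2 fell with siMYC and 1 rose (SDC4, syndecan-4, 0.71) and 2 fell (HMMR and DAG1) with MGA. The medians with siMYC were 0.80, 0.26, 0.61, 0.41 and 0.48 for these lists in the order given, and with MGA -0.11, -0.14, -0.05, 0.08 and 0.10, against 0.01 for all genes in each comparison. In the same order 66.7%, 43.5%, 57.1%, 67.5% and 71.4% of each list passed with siMYC, of which the collagen folding list is near the share of all genes, and 62.5%, 39.1%, 57.1%, 55% and 57.1% were higher. With MGA 16.7%, 13.0%, 23.8%, 20% and 21.4% passed.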

How the data were processed

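Libraries were made from poly(A) RNA, per the labels' protocols. Reads were handled with STAR and RSEM on hg19, per the submitters' processing notes; tool versions, the gene annotation and whether strand was used are not stated there. The deposited values are the authors' RSEM expected counts, estimates that need not be whole, and TPM values, which are corrected for length and scaled to a fixed total by the authors' pipeline. Since the use of strand is not stated, it is not known whether reads from a member and from its antisense gene were told apart. The antisense genes listed had 0 to 5 counts each over all libraries.

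Expected counts were rounded, filtered with filterByExpr (minimum count 10, minimum total 15; 11218 genes kept), scaled by TMM and fitted in edgeR 4.0.16 (R 4.3.3) over all 8 libraries, with 4 groups and 4 residual degrees of freedom. The contrasts compared MGA with empty vector, siMYC with siNC, and these responses with each other, with two-sided quasi-likelihood tests, Benjamini-Hochberg adjustment over all genes tested and a call at an adjusted p under 0.05. The standard error is the log2 fold change divided by the square root of F. CPM values are TMM-scaled. DESeq2 1.42.0, limma 3.58.1 on TPM, other scalings, no filter, a replicate block, single experiments and each library left out served as alternatives. Values per library are given for the single matrix genes, for up to 4 called members per family, comparison and direction, for the highest member of each family, for head-to-head pairs and for members called in the difference; other names were chosen after their values were seen. Members, related lists and markers were chosen with earlier results of these data known. Coordinates refer to the promoter reference, since the files name no positions. Results of 3 genes, 1 of them a member that stays in the counts but not in the figures, are not reported here.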

Additional observations from a re-analysis of the deposited data

How the results depend on the processing

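Of the members called, 0 of 12 with MGA, 19 of 37 with siMYC and 10 of 28 in the difference of responses kept the call in each alternative, and all of them kept their direction in each. On TPM (pseudocounts 1 and 0.1) the members called were 0 and 0 with MGA, 19 and 19 with siMYC and 12 and 12 in the difference. Over all genes, main counts of 1005, 4370 and 2076 became 358, 1971 and 827 with DESeq2, 82, 1245 and 347 on TPM with pseudocount 1, and 63, 1191 and 331 with pseudocount 0.1. With 1 library left out in turn, the members called ranged from 4 to 10 with MGA, 30 to 38 with siMYC and 20 to 28 in the difference, and the genes called from 402 to 474, 3299 to 3847 and 1309 to 1937; a lone library was then assumed to vary like the other groups. Among members that did not pass with MGA, FBN2 (0.07) changed sign when scaled by upper quartiles (-0.0047) or by library size alone (-0.058), FBN1 (0.48) on TPM with pseudocount 1 (-0.0013), and 2 changed sign with a library left out: FBN2 ranged from -0.18 (MGA replicate A; -0.034 for empty vector replicate B) to 0.25 and SPARC from -0.71 to 0.13 (empty vector replicate A). The cause of these changes was not tested.

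Scaling moved the split of calls. With MGA, rises and falls numbered 556 and 449 over all genes, 387 and 628 scaled by upper quartiles, and 300 and 821 scaled by library size alone, which put the median of all genes at -0.12; the members' split went from 5 and 7 to 3 and 10 with either. In the difference of responses the split of all genes went from 1154 and 922 to 804 and 1188, to 714 and 1357 (median -0.14) and, with the MGA gene left out, to 892 and 1101. With siMYC the split of all genes was 2130 and 2240 in the main fit. It became 2399 and 2057 with RLE size factors, 2379 and 2063 scaled by upper quartiles and 2384 and 2066 scaled by library size alone. With the MGA gene left out it was 2537 and 1974. The members' split with siMYC was 35 and 2 under each of these. On TPM the median of all genes with siMYC was 0.14 and 0.15. With the replicate block, 13 members were called with MGA, 37 with siMYC and 29 in the difference, and no member's call was lost. Over all genes 1176, 4657 and 2292 were called with the block. With 2 pairs the shared letter does not show a pairing (correlation of deviations -0.02 and 0.13). Members of about 10 CPM or less rest on about 20 or fewer reads per library, and the 39 untested members have no result in the main fit. Without the filter on low counts 79 members were tested, and 40 were called with siMYC, 38 higher and 2 lower. Over all 21044 genes tested without the filter, 4284 were called with siMYC, 2053 higher and 2231 lower. Of the 37 members called in the main fit, 36 kept the call there, so the 40 include members not called in the main fit. With MGA 11 members were called without the filter, and 27 in the difference. Over all genes these numbers were 1038 and 1965.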
